A study of Mus musculus with 12 samples.

Results

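The interferon regulatory factors are a family of transcription factors, and the genes described here are Irf1, Irf2, Irf3, Irf4, Irf5, Irf7, Irf8 and Irf9. They were chosen by symbol as the Irf rows among the 43280 genes of an RNA-seq table of mouse bone marrow-derived macrophages (BMDM), and 8 genes were kept as members. BMDM are macrophages grown from bone marrow cells in M-CSF, the growth factor of this lineage. The cells came from C57BL6 wild type (wt) mice or from Treml4-/- mice on the same background, which lack a receptor of the TREM family. Both genotypes received either PBS as vehicle (M0) or 100 ng/ml of LPS, a bacterial cell wall component sensed by Tlr4, for 8 h (M1-8 h) or 12 h (M1-12 h). Each of the 6 conditions had 2 libraries, labelled as biological replicates, and the labels do not say whether these came from different mice.

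All members of the family bind DNA through a related domain that reads GAAA-containing elements. Irf3 and Irf7 are held in the cytoplasm until kinases below Tlr4 and the nucleic acid sensors phosphorylate them, after which they switch on type I interferon genes. Irf5 is activated through Myd88 and drives inflammatory cytokine genes. Irf9 acts below the interferon receptors, with Stat2, in the complex that switches on most interferon-stimulated genes. Irf1 activates many of the same genes and Irf2 competes with it at shared sites, while Irf8 and Irf4 act with Spi1 and Batf proteins in the development and activation of myeloid cells.

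In the GENCODE annotation of GRCm38 all 8 are protein-coding genes. Irf2 (chr8:46739732-46847458) and Irf8 (chr8:120736358-120756694) share a chromosome, as do Irf3 (chr7:44997648-45002848) and Irf7 (chr7:141262706-141266481, the only member on the minus strand). Irf1 (chr11:53770014-53778374), Irf4 (chr13:30749226-30766976), Irf5 (chr6:29526625-29541871) and Irf9 (chr14:55603571-55610030) each lie on a chromosome of their own.

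Levels are given as CPM, the reads of a gene scaled to the total of its library, and the libraries held 48008751 to 58500792 counted reads. No read of Treml4 was counted in any of the 6 Treml4-/- libraries, whereas in wt 433 and 334 reads were counted without LPS, 198 and 213 after 8 h and 512 and 663 after 12 h. The 6 macrophage markers that had a row were present in every library. Among them were Csf1r at 1037 to 7203 CPM, Cd68 at 756 to 1881 CPM, Fcgr1 at 59.6 to 1348 CPM and Mertk at 28.9 to 302 CPM. Adgre1, also on the marker list, had no row under that symbol. Cd3e, Cd3d, Cd8a and Ncr1 were at 3 reads or fewer in all 12 libraries, while Cd4 was at 0.715 to 5.24 CPM and Klrb1c, a marker of NK cells, at up to 0.826 CPM. Fold changes were tested with limma on log2(CPM + 1) across 12086 genes, and a gene was called when its adjusted p was under 0.05 and its fold change at least 1.4. LPS moved the median of all tested genes by -0.72 at 8 h and by -0.76 at 12 h on the log2 scale, so changes under LPS are also given relative to that shift. Scaling the libraries by the median of gene ratios in place of total reads removed most of this shift, and at 8 h it moved the calls over all genes from 2070 higher and 7225 lower to 3762 higher and 3791 lower. At 12 h the calls moved from 1965 higher and 7284 lower to 3947 higher and 3942 lower.

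The first comparison asked how the family responded to LPS. At M1-8 h, 6 of the 8 members were called, 4 higher (Irf1, Irf2, Irf7 and Irf8) and 2 lower (Irf3 and Irf4), against 76.9% of all genes tested, of which 17.1% were called higher and 59.8% lower. At M1-12 h, 7 of the 8 were called, with Irf9 added to those that were higher, against 76.5% of all genes, 16.3% higher and 60.3% lower. The median log2 fold change of the 8 members was 0.68 at 8 h and 0.72 at 12 h. Irf4 passed the filter of at least 1 CPM in 2 libraries through its M0 libraries alone. Each of these calls was made within wt (76.9% of all genes at 8 h and 76.7% at 12 h) and within Treml4-/- macrophages (75.9% and 75.7%) too. The comparisons at 8 h and 12 h share their M0 libraries. In bulk RNA, fewer cells of a type and less RNA per cell cannot be told apart.

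**Figure D1:**
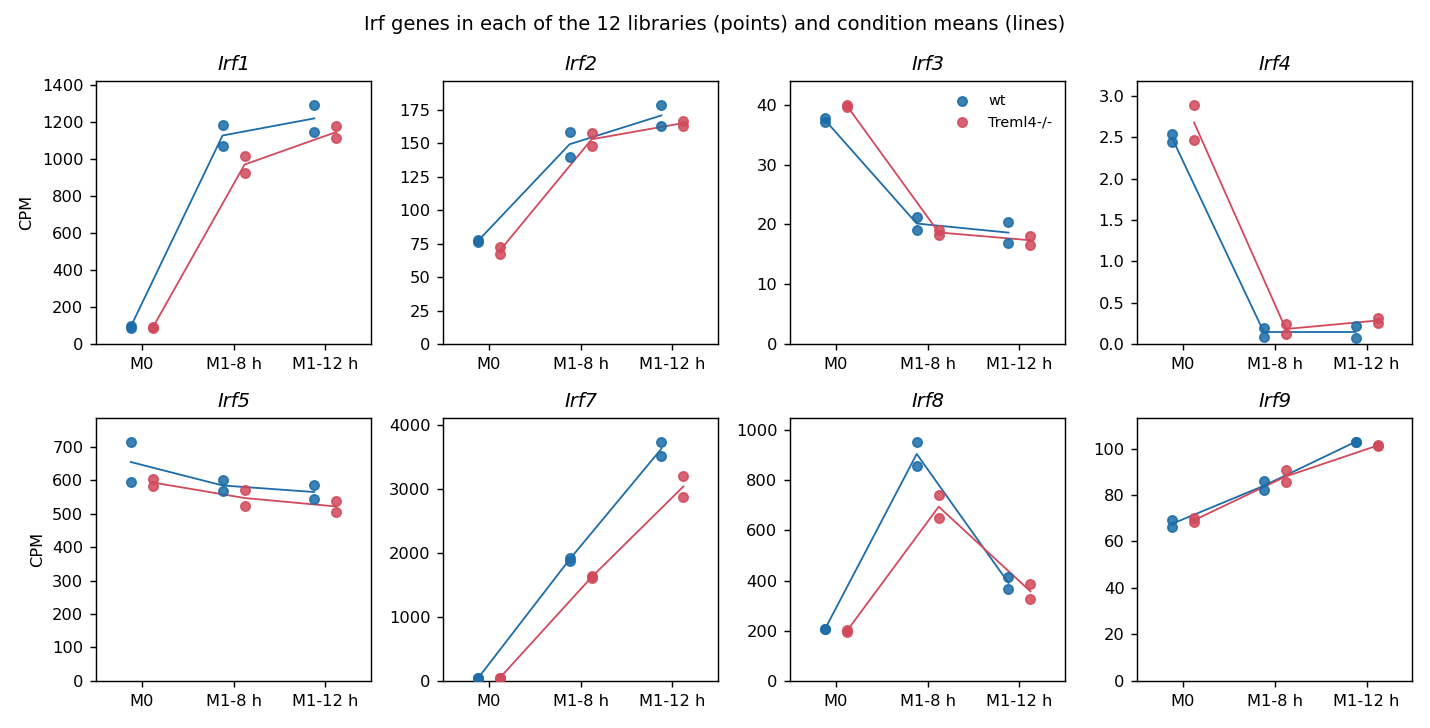
CPM of each Irf gene (vertical axis, linear and from 0, with its own scale in each panel) in the 12 libraries by condition (horizontal axis: M0, M1-8 h, M1-12 h), with blue points for wt, red points for Treml4-/- and lines through the condition means. Irf7 climbed at both times, Irf8 was highest at M1-8 h, Irf3 and Irf4 were lower in every LPS library than in every M0 library, and Irf5 stayed between 504 and 716 CPM.

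Irf7, the amplifier of type I interferon production, changed most among the members. It was at 38.6 and 40.1 CPM in the wt M0 libraries and at 51.1 and 44.8 CPM in the Treml4-/- M0 libraries. At M1-8 h it reached 1872 and 1927 CPM in wt and 1602 and 1644 CPM in Treml4-/- macrophages. At M1-12 h it reached 3516 and 3739 CPM in wt and 2881 and 3196 CPM in Treml4-/- macrophages. No M0 library came near an LPS library, and every 12 h library was above every 8 h library. The log2 fold change was 5.31 ± 0.06 (SE) at 8 h (adjusted p = 4.1e-14) and 6.22 ± 0.06 at 12 h (adjusted p = 1.8e-14), ranks 96 and 64 from the top among the 12086 genes. From 8 h to 12 h Irf7 rose by a further 0.92 ± 0.06 (adjusted p = 5.0e-07), a ratio of mean CPM of 1.89.

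Irf3, the constitutive partner of Irf7 in interferon induction, was lower under LPS on the CPM scale. It was at 37.0 and 37.9 CPM in wt and 40.0 and 39.7 CPM in Treml4-/- macrophages at M0, and at 16.6 to 21.2 CPM in the 8 LPS libraries. The M0 and LPS libraries did not overlap, and the mean at M0 was 1.99 times that at 8 h and 2.15 times that at 12 h. The log2 fold change was -0.96 ± 0.08 at 8 h (adjusted p = 1.8e-07) and -1.06 ± 0.08 at 12 h (adjusted p = 6.7e-08), close to the shift of the median gene, from which it differed by -0.23 and -0.31. With median of ratios scaling the change of Irf3 was -0.19 (adjusted p = 0.0538) at 8 h and -0.24 (adjusted p = 0.0154) at 12 h, and with quantile normalization -0.31 and -0.37, so that Irf3 was not called under either.

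Irf5 was the member with the least change on the CPM scale. It was at 594 and 716 CPM in wt and 603 and 584 CPM in Treml4-/- macrophages at M0, at 523 to 601 CPM at M1-8 h and at 504 to 585 CPM at M1-12 h. The libraries of the 3 times overlapped. The log2 fold change was -0.14 ± 0.07 at 8 h (adjusted p = 0.0834, 95% interval -0.29 to 0.02) and -0.20 ± 0.07 at 12 h (adjusted p = 0.0202), under 1.4-fold at both times. Its direction depended on the scaling: with median of ratios scaling Irf5 was called higher, by 0.66 at 8 h (adjusted p = 2.0e-05) and 0.65 at 12 h (adjusted p = 2.2e-05). With quantile normalization it changed by -0.39 and -0.35, again under 1.4-fold.

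Irf9, the DNA-binding partner of Stat2, was called higher at 12 h and not at 8 h. It was at 66.1 to 70.1 CPM in the 4 M0 libraries, 82.0 to 90.6 CPM in the 4 libraries of M1-8 h and 101 to 103 CPM in the 4 libraries of M1-12 h. None of these ranges overlapped. The log2 fold change was 0.33 ± 0.05 at 8 h (adjusted p = 1.1e-04), which is under 1.4-fold, and 0.57 ± 0.05 at 12 h (adjusted p = 7.3e-07). Relative to the median gene Irf9 was higher by 1.05 at 8 h and 1.33 at 12 h, and with median of ratios scaling it was called at 8 h as well (1.11, adjusted p = 3.1e-09).

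Irf1, an activator of interferon and inflammatory genes, rose by 8 h, with a much smaller step after that. It was at 89.5 and 100.6 CPM in wt and 91.4 and 89.6 CPM in Treml4-/- macrophages at M0. At M1-8 h it was at 1072 and 1184 CPM in wt and 1017 and 924 CPM in Treml4-/- macrophages, and at M1-12 h at 1148 and 1293 CPM in wt and 1115 and 1179 CPM in Treml4-/- macrophages. All LPS libraries stood above all M0 libraries, and those of 8 h and 12 h overlapped. The log2 fold change was 3.48 ± 0.07 at 8 h (adjusted p = 1.8e-12) and 3.66 ± 0.07 at 12 h (adjusted p = 1.4e-12), ranks 272 and 232 from the top, and the step from 8 h to 12 h was 0.18 ± 0.07 (adjusted p = 0.0424), under 1.4-fold. Irf2, which competes with Irf1 for DNA, was at 67.3 to 77.8 CPM at M0, 140 to 159 CPM at 8 h and 163 to 179 CPM at 12 h. It rose by 1.03 ± 0.06 (adjusted p = 1.7e-08) and 1.18 ± 0.06 (adjusted p = 4.9e-09), and its step between the LPS times was 0.15 (adjusted p = 0.0552).

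Irf8, a regulator of monocyte and dendritic cell development, had a peak at 8 h. It was at 205 and 207 CPM in wt and 203 and 196 CPM in Treml4-/- macrophages at M0, at 855 and 953 CPM in wt and 741 and 647 CPM in Treml4-/- macrophages at M1-8 h, and at 367 and 414 CPM in wt and 328 and 385 CPM in Treml4-/- macrophages at M1-12 h. The ranges of the 3 times did not overlap. The log2 fold change was 1.96 ± 0.07 at 8 h (adjusted p = 3.5e-10) and 0.87 ± 0.07 at 12 h (adjusted p = 3.7e-07), and Irf8 fell by 1.09 ± 0.07 on the log2 scale between them (adjusted p = 5.5e-07). Among all 12086 genes that fall ranked 524 from the bottom. The 5 dendritic cell markers summed to 0.65 to 1.16 CPM at M0 and to 13.8 to 27.3 CPM under LPS. Of these, Ccr7 was at up to 21.5 CPM and Xcr1 at up to 7.19 CPM. Flt3, Zbtb46 and Siglech stayed at or under 0.713, 0.337 and 0.0928 CPM in every library. Their part in the level of Irf8 was not tested.

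Irf4, tied to alternative activation of macrophages, was low throughout. It had 127 and 129 reads in wt and 142 and 132 reads in Treml4-/- macrophages at M0, that is 2.45 to 2.89 CPM. At M1-8 h 10 and 5 reads were counted in wt and 14 and 7 in Treml4-/- libraries, and at M1-12 h 4 and 11 reads in wt and 15 and 15 in Treml4-/- libraries. Every LPS library stood far below every M0 library. Mean CPM was 15.6-fold lower at 8 h and 11.9-fold lower at 12 h. On log2(CPM + 1), which understates the change of low genes, Irf4 fell by 1.62 ± 0.08 (adjusted p = 2.3e-09) and by 1.56 ± 0.08 (adjusted p = 3.0e-09). With median of ratios scaling it fell by 1.21 and 1.13. It passed the filter through its M0 libraries alone, which favoured a fall, so these p-values are no separate support for it.

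**Figure D2:**
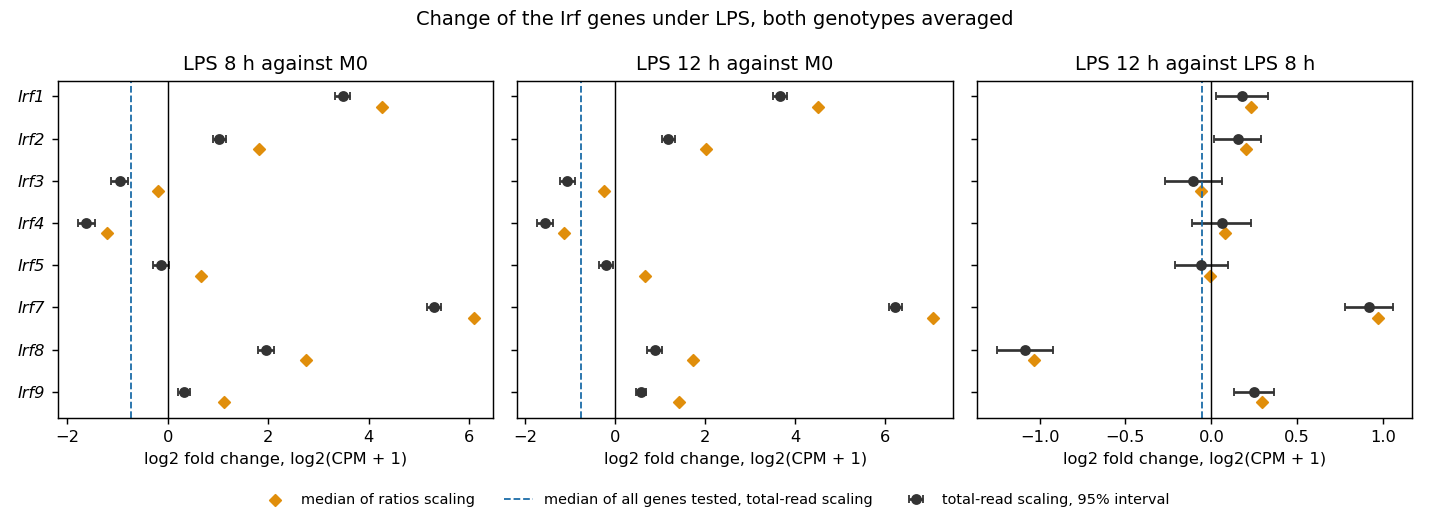
Log2 fold changes on log2(CPM + 1) (horizontal axis) of each Irf gene (rows) at 8 h of LPS against M0, at 12 h against M0 and at 12 h against 8 h, both genotypes averaged, with black points and 95% intervals for total-read scaling, orange diamonds for median of ratios scaling, and a dashed line at the median of all genes tested. Irf1, Irf2, Irf7 and Irf8 lie to the right of 0 under both scalings at both times, whereas Irf5 lies at -0.14 and -0.20 with total reads and at 0.66 and 0.65 with median of ratios.

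Only Irf7 and Irf8 were called between M1-12 h and M1-8 h, and in opposite directions, 2 of 8 members against 32.1% of all genes, of which 13.5% were called higher and 18.7% lower. Irf7 rose by 0.93 in wt (31.6% of all genes called) and 0.90 in Treml4-/- macrophages (32.3% called). Irf8 fell by 1.21 in wt and by 0.96 in Treml4-/- macrophages. Of the other members, Irf9 changed by 0.25 (adjusted p = 0.002), under 1.4-fold, and Irf3, Irf4 and Irf5 had adjusted p-values of 0.25, 0.529 and 0.495.

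To compare the members with each other, CPM were divided by exon length in kb, and shares are of the sum of the 8 members. This length is the union of the exons of all annotated transcripts of a gene. For Irf7 it is 3776 bases and takes in every base of the gene, whereas for Irf5 it is 2905 bases and a small part of the gene. The order and shares below therefore depend on the annotation. At M0 Irf5 dominated, at 225 ± 30 (SD, n = 2) CPM per kb in wt and 204 ± 4.5 in Treml4-/- macrophages, which was 68.0 to 71.2% of the sum in wt and 67.6% in both Treml4-/- libraries. Irf8 and Irf1 followed at 29.2 and 23.9 CPM per kb in wt and 28.3 and 22.8 CPM per kb in Treml4-/- macrophages. Irf9, Irf3, Irf7 and Irf2 lay between 9.45 and 12.8 CPM per kb in both genotypes, and Irf4 at 0.51 and 0.55 CPM per kb. In this cluster of similar levels, Irf7 and Irf2 overlapped in wt, and Irf9 and Irf7 overlapped in Treml4-/- libraries.

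Under LPS the order on the per-length scale was Irf7, Irf1, Irf5, Irf8, Irf2, Irf9, Irf3 and Irf4 in all 4 LPS conditions, with no overlap between neighbours. Irf7 held 41.4 to 44.3% of the family sum at M1-8 h and 58.3 to 61.8% at M1-12 h. The share of Irf5 was 16.6 to 19.2% at M1-8 h and 12.4 to 13.3% at M1-12 h. The family sum went from 298 to 346 CPM per kb at M0 to 982 to 1179 at M1-8 h and 1309 to 1622 at M1-12 h. At both LPS times the wt range of this sum lay above that of Treml4-/-, at 1136 to 1179 against 982 to 1024 at 8 h, and 1507 to 1622 against 1309 to 1430 at 12 h. Of single genes, 18.0% and 12.3% had both wt libraries above both Treml4-/- libraries, and 33.9% and 30.8% the other way. Irf7 held the largest share of the sum, and no test was made of the sum.

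**Figure D3:**
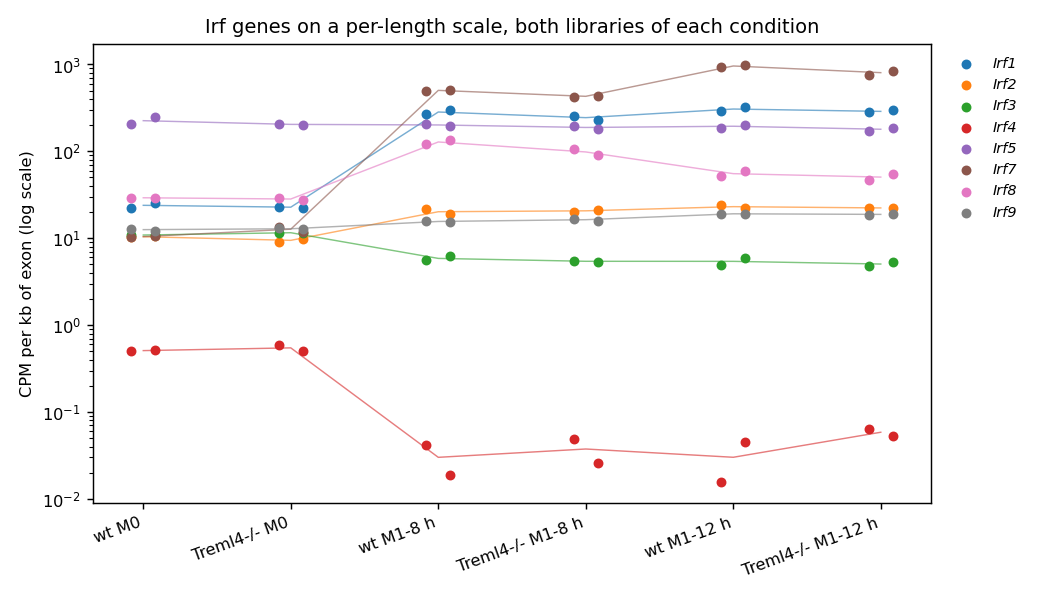
CPM per kb of exon (vertical axis, log scale) of the 8 Irf genes in the 6 conditions (horizontal axis), with 1 point per library and lines through the condition means to guide the eye. Irf5 leads at M0, Irf7 and Irf1 lie above it in every LPS library, and Irf4 is the lowest member throughout.

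The promoters of all 8 members were read next. RefSeq windows of 300 bases, from 250 before to 50 after the start site, were found for all 8 members (11 windows, GRCm38.p6). Both strands were searched for the GAAANNGAAA core of the interferon-stimulated response element (ISRE), held by 3.44% of all 32851 windows, for TTCNNNGAA, the gamma-activated site (GAS, 8.3% of windows), and for the NF-kB element (8.46% of windows). Counted by gene, 3.99%, 9.55% and 9.55% of 27025 genes held the 3 motifs in turn. Matches stood in the windows of 3 of the 8 members, Irf1, Irf2 and Irf8. Each of these rose under LPS, as did Irf7 and Irf9 without a match. The 250 bases before the start are shown 5′ to 3′ on the plus strand with the matches in capitals.
Irf1: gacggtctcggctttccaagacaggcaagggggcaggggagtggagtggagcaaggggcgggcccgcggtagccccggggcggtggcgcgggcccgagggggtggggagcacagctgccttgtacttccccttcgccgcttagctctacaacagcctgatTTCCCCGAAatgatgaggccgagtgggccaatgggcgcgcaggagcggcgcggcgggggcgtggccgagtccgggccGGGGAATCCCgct
Irf2: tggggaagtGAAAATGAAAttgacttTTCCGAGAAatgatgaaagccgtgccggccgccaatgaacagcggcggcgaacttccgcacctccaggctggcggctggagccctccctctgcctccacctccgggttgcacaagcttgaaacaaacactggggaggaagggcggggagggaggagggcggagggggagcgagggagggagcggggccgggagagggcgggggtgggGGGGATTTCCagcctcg
Irf8: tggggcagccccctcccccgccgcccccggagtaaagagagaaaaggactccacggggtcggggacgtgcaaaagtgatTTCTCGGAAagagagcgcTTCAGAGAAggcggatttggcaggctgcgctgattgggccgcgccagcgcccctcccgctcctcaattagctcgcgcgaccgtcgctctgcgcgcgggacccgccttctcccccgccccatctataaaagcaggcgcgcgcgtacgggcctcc

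The Irf1 stretch (chr11:53769764-53770013) holds 1 GAS, 90 to 82 bases before the start, and 1 NF-kB element, 13 to 4 bases before it. The Irf2 stretch (chr8:46739495-46739744) holds 1 ISRE core, 1 GAS and 1 NF-kB element, the last of which crosses the start of the gene in the GENCODE annotation. The Irf8 stretch (chr8:120736108-120736357) holds 2 GAS, 171 to 163 and 153 to 145 bases before the start. The windows of Irf3, Irf4, Irf5, Irf7 and Irf9 held none of the 3 motifs, so Irf7, with the largest rise of the family, had no match. A match is a string of letters and not a bound site, and the lack of one says only that these letters are not in the window.

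The activators upstream of the family split in direction under LPS. Of 18 genes of this list, 7 were called higher and 6 lower at 8 h (all genes 17.1% and 59.8%). At 12 h these were again 7 and 6 (all genes 16.3% and 60.3%). The medians were 0.08 and 0.21 beside -0.72 and -0.76 over all genes. The kinase genes Tbk1 (1.21 at 8 h and 1.38 at 12 h) and Ikbke (1.12 at 8 h), whose products phosphorylate Irf3 and Irf7, and their adaptors Tank (2.83) and Azi2 (1.47) rose. Mavs, the adaptor of the RNA sensors, fell by 2.29 at 8 h, and Slc15a4, needed for endosomal activation of Irf5, fell by 2.21. Myd88 rose by 1.82 while the kinase gene Irak1 below it fell by 1.91. With median of ratios scaling the list had 10 higher and 3 lower at 8 h.

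In the interferon arm that makes and uses Irf9, 5 of 10 genes were called higher and 1 lower at 8 h (all genes 17.1% and 59.8%), and 6 and 1 at 12 h (all genes 16.3% and 60.3%). With median of ratios scaling 9 were higher and 1 lower at both times. Stat2 rose by 3.72 at 8 h, next to the 0.33 of its partner Irf9. Ifnb1, the interferon beta gene, went from 0.01 CPM in both genotypes at M0 to 11.9 CPM in wt and 7.87 CPM in Treml4-/- macrophages at 8 h, and stood at 1.36 and 1.08 CPM at 12 h. Ifngr1, a chain of the interferon gamma receptor, fell by 3.26 at 8 h. Of 9 tested partners and cofactors, 2 were called higher at 8 h (Batf 3.46 and Batf2 6.09) and 5 lower, among them the corepressor genes Irf2bp1 (-1.21) and Irf2bp2 (-2.62), next to 17.1% of all genes higher and 59.8% lower. Spi1, the partner of Irf8 and Irf4, changed by -0.48 at 8 h, which was not called. With median of ratios scaling 3 partners were higher and 1 lower. Most of the brakes rose, and 7 of 9 were called higher and 1 lower at 8 h (all genes 17.1% and 59.8%). They were led by Socs1 (6.96), Usp18 (6.72) and Socs3 (6.32), with a median of 2.77 beside -0.72 over all genes.

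Genes listed as targets of Irf3, Irf7 or Irf9 were all called higher, 14 of 14 at both times (all genes 17.1% and 16.3%). Their medians were 6.99 and 7.44. The median of these genes from 8 h to 12 h was 0.19, and 3 of the 14 were called higher over that step (Ccl5 0.53, Rsad2 0.92 and Ifi44 0.87) and 2 lower (Ifnb1 -2.27 and Oasl1 -0.50), next to 13.5% of all genes higher and 18.7% lower. Of 8 tested targets of Irf1, 7 were called higher at both times (all genes 17.1% and 16.3%), with Nos2 at 11.49 and Cxcl9 at 11.18 at 8 h. The remaining 1, Ciita, was called lower (all genes 59.8% and 60.3%). The 3 tested targets of Irf5, Il12b, Il6 and Tnf, were all called higher at 8 h, by 8.19, 7.35 and 3.89 (all genes 17.1%). From 8 h to 12 h all 3 were called lower, by -2.39, -1.98 and -1.77 (all genes 18.7%). Targets of Irf8 split, with Il12b, Cybb (0.99) and Cd74 (1.32) called higher and Ciita (-0.53) and Cst3 (-0.79) called lower at 8 h (all genes 17.1% and 59.8%). With median of ratios scaling no target of Irf1 or Irf8 was called lower against M0 at either time. Of the 5 tested genes tied to Irf4, Arg1 (5.84), Il10 (4.49) and Kdm6b (2.57) were called higher at 12 h, and Mrc1 (-1.79) and Chil3 (-1.25) lower (all genes 16.3% and 60.3%). Median of ratios scaling gave 3 higher and 1 lower at 12 h. At 8 h, 3 of the 5 were called higher and 0 lower with total reads (all genes 17.1% and 59.8%). Several of these genes stand on more than 1 list. The lists were chosen with earlier results of these data known, so no count on them supports a direction.

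The genes most like each member over the 12 libraries, by Pearson's r of log2(CPM + 1), were Isg20, Mov10 and Il18bp for Irf7 (r = 0.999 each) and Tap2, Ccl5 and Slamf1 for Irf1 (r = 0.999 each). Irf8, with its peak at 8 h, was closest to Ube2z, Tbc1d13 and Sertad3 (r = 0.993 each), and Irf9 to Stoml1, Acoxl and Oas1c (r = 0.992 to 0.995). Irf2 was closest to Fbn1 (r = 0.995), Irf3 to Taf10 (r = 0.997) and Irf4 to Gstt3 (r = 0.998). Irf5 had no gene above 0.9, and its closest was Rhog (r = 0.892). These values describe libraries that share their conditions, and 4948 genes for Irf3 and 1106 genes for Irf7 had r above 0.9.

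The second comparison asked whether the family differed between wt and Treml4-/- macrophages. No member was called in unstimulated cells or after either time of LPS, against 0.0993%, 0.091% and 0.132% of all genes, and none in the mean over the 3 times, against 0.414%. Over all genes these shares rest on 12, 11, 16 and 50 calls and moved with single libraries, while no member was called with any library left out. Without wt M0 replicate 1, 220 genes were called at M0 and 183 in the mean, without Treml4-/- M1-8 h replicate 1 599 were called at M1-8 h, and without wt M1-12 h replicate 1 79 were called at M1-12 h. At an unadjusted p under 0.05, limma had 1 member without LPS, 3 after 8 h, 1 after 12 h and 2 in the mean, and voom, limma's weighted fit to reads, called none either. Among the 12086 genes 405, 2539 and 912 had such a p at the 3 times in turn and 2434 in the mean.

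Irf8 at M1-8 h had 855 and 953 CPM in wt against 741 and 647 CPM in Treml4-/- libraries. Both wt libraries were above both Treml4-/- libraries. With total-read scaling the difference was 0.38 ± 0.11 on log2(CPM + 1) (wt over Treml4-/-, 95% interval 0.15 to 0.62, adjusted p = 0.155). Its size depends on the scaling. Median of ratios scaling raised genotype differences at this time, as for Irf2 from -0.037 to 0.093 and Irf9 from -0.067 to 0.063. No member was called under it. At M0 and M1-12 h Irf8 differed by 0.05 and 0.13 (adjusted p = 1 and 0.854).

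Irf7 was lower in wt at M0, by -0.28 ± 0.09 (adjusted p = 1), and higher in wt at M1-8 h, by 0.23 ± 0.09 (adjusted p = 0.196), and at M1-12 h, by 0.26 ± 0.09 (adjusted p = 0.48). At each time the libraries of the 2 genotypes did not overlap. The fitted change under LPS was 5.56 in wt against 5.05 in Treml4-/- macrophages at 8 h, and 6.49 against 5.96 at 12 h. The tests of that difference between genotypes gave 0.50 ± 0.13 at 8 h (adjusted p = 0.729) and 0.53 ± 0.13 at 12 h (adjusted p = 0.999). No member was called in the test of the genotype by LPS interaction at either time, against 0.00827% of all genes, and 2 members at 8 h and 1 at 12 h had an unadjusted p under 0.05, as did 806 and 462 of the 12086 genes.

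Of the other members none was called. Irf1 was higher in wt at M1-8 h by 0.22 ± 0.10 (adjusted p = 0.233), with 1072 and 1184 CPM against 1017 and 924 CPM. With total-read scaling Irf2, Irf3, Irf5 and Irf9 lay between -0.09 and 0.14 at all 3 times. The 95% intervals of these 4 reached no further than -0.32 and 0.35 on that scaling. The value of Irf4 depended on the pseudocount, since it had 4 to 15 reads in each LPS library. At M1-12 h the 4 and 11 reads in wt and the 15 and 15 reads in Treml4-/- libraries were 0.148 ± 0.10 and 0.286 ± 0.037 CPM (SD, n = 2), a ratio of 1.94. Irf4 differed there by -0.17 on log2(CPM + 1) (adjusted p = 0.815) and by -1.11 on the deposited log2 CPM (adjusted p = 0.651), and at M1-8 h by -0.05 and -0.34. At M1-8 h, 4 members (Irf1, Irf3, Irf7 and Irf8) had both wt libraries above both Treml4-/- libraries, which 18.0% of all genes had, and none was the other way (33.9%). At M0 this held for 2 members, Irf2 and Irf8 (10.8% of all genes), with Irf3 and Irf7 the other way (18.0%), and at M1-12 h for 3, Irf5, Irf7 and Irf9 (12.3%), with Irf4 the other way (30.8%).

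**Figure D4:**
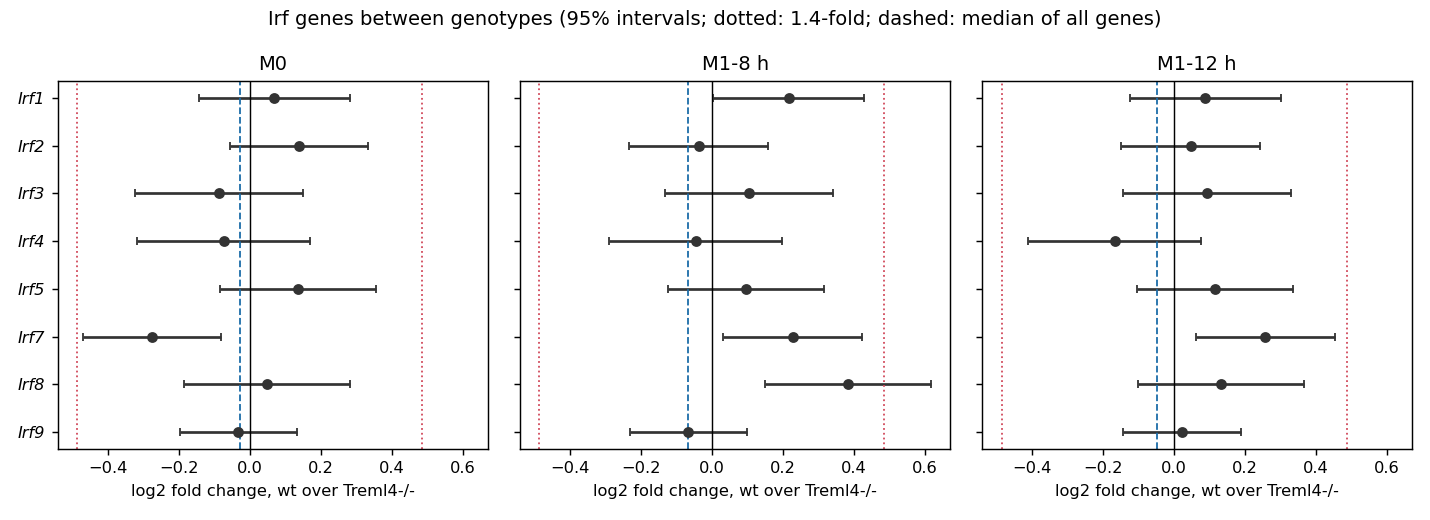
Log2 fold changes of wt over Treml4-/- on log2(CPM + 1) (horizontal axis) for each Irf gene (rows), 1 panel for each time, with 95% intervals, dotted lines at 1.4-fold and a dashed line at the median of all genes tested. With total-read scaling Irf8 lies at 0.38 at M1-8 h, and Irf7 lies at -0.28 at M0 and at 0.23 and 0.26 under LPS.

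None of the lists of activators, interferon receptor genes, partners, brakes or targets had a member called between genotypes at any time. Markers of neutrophils and progenitors, summed over 5 genes, were at 31.2 and 81.9 CPM in the wt M0 libraries and at 85.7 and 99.1 CPM in the Treml4-/- M0 libraries, at 53.5 to 57.0 against 67.4 to 87.5 CPM at M1-8 h, and at 40.4 to 50.8 against 47.6 to 59.9 CPM at M1-12 h, where they overlapped, with Ly6g, the surface marker of neutrophils, at 0.131 CPM or less. The summed macrophage markers were 20982 to 25435 CPM in wt and 18630 to 18872 CPM in Treml4-/- libraries at M0. They were higher in wt under LPS too, at 9781 to 11112 against 8395 to 8907 CPM at M1-8 h and 8468 to 8921 against 8113 to 8341 CPM at M1-12 h. The part of either in the Irf values was not tested. Exons of Irf5 share 411 bases, 14.1% of its length, with Tnpo3 (47.5 to 95.7 CPM) on the opposite strand, and those of Irf9 share 123 bases with Rnf31 (41.8 to 195 CPM) on the same strand, while Irf1, Irf3 and Irf7 share 135, 88 and 45 bases with genes of the opposite strand, so reads there may be split or shared depending on how they were counted.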

How the data were processed

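Libraries were strand-specific and poly(A)-selected, with paired reads of HiSeq2500 runs. The authors aligned them with STAR (mm10 per the labels), counted genes with Subread and deposited log2 CPM, that is log2 values of reads scaled to the library total with a prior count of 0.25. The annotation and the strand setting of counting are not given in the sources used here. The deposited log2 values were turned back into reads, which were whole in 100% of values (within 0.01 reads), and into CPM. limma 3.58.1 in R 4.3.3 was fitted to log2(CPM + 1) over all 12 libraries. Every condition had its own mean, the prior variance followed a trend, and genes under 1 CPM in all but 1 library were left out, which kept 12086. Benjamini-Hochberg adjustment ran over all of these, and called genes had an adjusted p under 0.05 and a change of at least 1.4-fold. Levels per kb used the union of all annotated exons of a gene in GENCODE M21 on GRCm38, the build of the labels. The script was tested on simulated data. The value of 1 read ranged from 0.0171 to 0.0208 CPM, which is the step of the CPM scale and measures neither counting error nor spread between replicates. The genes and lists were chosen with earlier results of these data known: all Irf symbols, lists by role, and for each Irf gene the 3 genes of highest correlation. Listed genes were described by counts and medians and not tested as lists. With 2 libraries per condition, no permutation test within a time could pass a threshold. Python 3.11.15, numpy 2.4.6, pandas 2.3.3 and matplotlib 3.10.9 were used.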

Additional observations from a re-analysis of the deposited data

How the results depend on the processing

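Scaling mattered most for the LPS comparisons. With median of ratios scaling Irf5 changed direction, to 0.66 at 8 h and 0.65 at 12 h. This scaling also raised the genotype difference of the median gene at M1-8 h, from -0.069 to 0.027. Small genotype differences that were not called also changed sign under it, namely Irf9 at M0 (0.0058) and Irf2 (0.093) and Irf9 (0.063) at M1-8 h, as did under quantile normalization Irf5 from 8 h to 12 h (0.048) and Irf4 between genotypes at M1-8 h (0.0046). Without the 1.4-fold minimum, 4 members in place of 2 passed from 8 h to 12 h, Irf1 and Irf9 being added. Leaving out each library in turn left the number of called members at 6, 7 and 2 under LPS and at 0 between genotypes, while small genotype differences changed sign: Irf1 (-0.015 to 0.15), Irf4 (-0.16 to 0.0099) and Irf9 (-0.065 to 0.00011) at M0, Irf2 (-0.13 to 0.054) and Irf4 (-0.11 to 0.024) at M1-8 h, Irf2 (-0.019 to 0.11) and Irf3 (-0.034 to 0.22) at M1-12 h, and the interaction at 12 h for Irf1 (-0.067 to 0.11) and Irf8 (-0.030 to 0.20). Beside Irf5, the member calls that scaling changed were those of Irf3 at both LPS times and Irf9 at 8 h, given with the values above. Using the deposited log2 CPM directly, a smaller pseudocount, voom, a fit without the trend or only the libraries of a comparison changed no call of a member. A filter at 5 CPM removed Irf4 and gave 5 and 6 called members. The labels give the 3 times of a genotype the same replicate numbers, so these libraries may not be independent. The main fit, which has no block, treated them as independent. Replicate numbers were not taken to pair the libraries there, since not every correlation of same-numbered deviations was over 0.1. Between genotypes it was -0.26 without LPS, 0.30 after 8 h and 0.06 after 12 h, within wt 0.12 (M0 with 8 h), 0.06 (M0 with 12 h) and 0.41 (8 h with 12 h), and within Treml4-/- 0.46, -0.20 and -0.27 in the same order. With the replicate number as a block 6, 7 and 2 members were called under LPS and 0 between genotypes. With the block within genotype the LPS counts were the same, and the genotype differences could be fitted only with it as a random term. Under that term 0 members were called, and over all genes the mean genotype difference had 36 calls against 50. Over all genes the mean genotype difference had 50 calls, with 78 under log2(CPM + 0.1), 17 without a filter and 31 at 5 CPM, and 21 to 183 when each library was left out. At M0, 8 h and 12 h the genotype calls were 7 to 220, 8 to 599 and 6 to 79 when each library was left out, against 12, 11 and 16, and the interaction calls 1 to 3 at 8 h and 1 to 33 at 12 h, against 1 each.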
